A study of Homo sapiens with 6 samples.

Results

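The plasminogen activation system was followed through 5 genes of sorafenib-resistant hepatocellular carcinoma cells. These were the plasminogen activators PLAU and PLAT, the urokinase receptor PLAUR, and the serpins SERPINE2 and SERPINB8. They were picked by gene symbol from the 16305 genes tested, with their measured values already known, so their differences between the groups are given as a description and without a test. All 5 were found in the files, and all 5 had at least 10 reads in every sample.

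The cells were Huh7SR (named Huh7-R in the study), a pool made resistant by long-term exposure of the hepatocellular carcinoma line Huh7 to sorafenib, a multikinase inhibitor. Per the study's methods, sorafenib was taken out of the medium some days before each experiment. All samples share the resistant line, a labelled dose of 2 µM and a labelled time of 24 h. RNA was sequenced from 3 samples treated with fostamatinib, a prodrug inhibitor of spleen tyrosine kinase, and from 3 treated with DMSO, the solvent, whose labels carry the same dose. The study reports that it did not detect the protein of this kinase in Huh7 cells. The labels speak of treatments in triplicate and do not say whether the wells came from separate cultures, so the spread may be technical.

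Plasminogen is a liver-made proenzyme that becomes plasmin, the protease that dissolves fibrin and cuts matrix proteins. Urokinase (the product of PLAU) does this at the cell surface, bound to its lipid-anchored receptor (PLAUR), and tissue-type plasminogen activator (PLAT) does it mainly on fibrin. Serpins are inhibitors that trap a protease in a covalent complex, which receptors of the LDL receptor family then take up. SERPINE2 (protease nexin-1) inhibits thrombin, urokinase, tissue-type activator and plasmin. SERPINB8 is a largely intracellular serpin known to inhibit furin and is not a main inhibitor of either activator.

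The bases before the transcription starts of PLAUR, SERPINB8, PLAU and SERPINE2 are shown as a description. They are the 250 bases before the start given by RefSeq on GRCh38.p14, read 5′ to 3′ on the strand of the gene. Capitals mark letters found by a search of both strands for TGANTCA (the AP-1 element), GGAAGT (an ETS core), TATAAA (the TATA box) and CCCGCCC (an Sp1 box). PLAUR lies at chr19:43670170-43670419 on the minus strand, SERPINB8 at chr18:63969831-63970080 on the plus strand, PLAU (second of its 2 starts) at chr10:73910882-73911131 on the plus strand, and SERPINE2 (second of its 2 starts) at chr2:224038641-224038890 on the minus strand.
PLAUR: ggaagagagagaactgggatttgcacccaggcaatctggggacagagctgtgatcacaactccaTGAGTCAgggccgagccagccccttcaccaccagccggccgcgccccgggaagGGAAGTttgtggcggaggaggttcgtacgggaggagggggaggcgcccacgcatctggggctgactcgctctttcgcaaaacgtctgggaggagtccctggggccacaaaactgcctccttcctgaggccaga
SERPINB8: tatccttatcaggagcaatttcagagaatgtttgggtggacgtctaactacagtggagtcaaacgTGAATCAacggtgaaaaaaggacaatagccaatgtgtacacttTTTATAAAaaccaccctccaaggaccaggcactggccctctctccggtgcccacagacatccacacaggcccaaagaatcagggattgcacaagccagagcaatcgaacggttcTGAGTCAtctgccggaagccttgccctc
PLAU: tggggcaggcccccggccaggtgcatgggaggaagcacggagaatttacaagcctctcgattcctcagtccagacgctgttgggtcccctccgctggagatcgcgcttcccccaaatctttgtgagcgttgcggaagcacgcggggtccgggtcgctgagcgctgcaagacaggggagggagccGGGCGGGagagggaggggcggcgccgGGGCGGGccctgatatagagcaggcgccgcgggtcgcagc
SERPINE2: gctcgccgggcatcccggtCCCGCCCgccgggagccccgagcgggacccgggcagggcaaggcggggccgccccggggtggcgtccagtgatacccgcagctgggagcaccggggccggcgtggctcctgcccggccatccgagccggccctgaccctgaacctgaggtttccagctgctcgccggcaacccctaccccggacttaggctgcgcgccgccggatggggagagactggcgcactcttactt

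Over the full windows of 300 bases, which add 50 bases after the start, PLAUR held TGAGTCA beginning 186 bases before the start and GGAAGT beginning 133 bases before it. SERPINB8 held TGAATCA beginning 185 and TGAGTCA beginning 28 bases before the start, and a TATAAA on each strand at 142 and 140 bases before it, overlapping each other. Neither window of PLAU and neither window of SERPINE2 held the AP-1, ETS or TATA letters. Bases outside these windows were not searched, so elements further from the start would not be seen. The window shown for PLAU held CCCGCCC on the other strand beginning 66 and 40 bases before the start, and the window shown for SERPINE2 held it once, beginning 231 bases before the start. Of 34796 different RefSeq windows of this length, 7.73% held TGANTCA, 22.8% GGAAGT, 11.6% TATAAA and 33.1% CCCGCCC. These matches are letters in a window, and binding was not measured. Whether they bear on the differences between the treatments was not tested. PLAT has no sequence shown here.

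The libraries held 13303451 to 15272737 reads on the tested genes, and a share of 100% of the values could be turned back into whole reads (within 0.05). Relative to counting error, the variance between 2 libraries was 1.65 to 3.74 times as large within a group and 39.8 to 44.5 times as large across the groups. Of 10 hepatocyte and hepatoma markers all 10 were detected, with summed levels of 5178 to 5520 CPM after DMSO and 7044 to 7469 CPM after fostamatinib. The immune markers PTPRC, CD68, CSF1R and CD3E and the endothelial markers VWF, CDH5 and KDR were not among the genes tested; the remaining immune marker, CD14, had 2 to 7 reads per sample, and the remaining endothelial marker, PECAM1, had 84, 97 and 103 reads after DMSO and 120, 141 and 120 after fostamatinib. The 4 tested markers of 6 for stellate cells and fibroblasts summed to 149 to 154 CPM after DMSO and 193 to 200 CPM after fostamatinib. Most of that sum was COL1A2, with 1929, 2214 and 2143 reads after DMSO and 2484, 2670 and 2460 after fostamatinib. COL1A1, COL3A1 and PDGFRB had 10 to 101 reads per sample. The part of these markers in the results was not tested. Since the RNA is bulk, fewer cells with a transcript and less of it per cell cannot be told apart.

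Across all genes, 47.8% passed limma's test at an adjusted p under 0.05, 23.3% higher and 24.5% lower after fostamatinib, and the 2 groups did not overlap in 54.1% of genes. Of the 5 genes, 3 passed this threshold, each of them lower, and the same 3 had groups that did not overlap. Nothing is read from that count, because the genes were chosen with this contrast in view.

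Transcripts of the urokinase gene were even between the treatments. PLAU (ENSG00000122861, chromosome 10 of GRCh37 from 75668935 to 75677254, + strand) had 68, 63 and 68 reads under DMSO and 68, 67 and 55 under fostamatinib. The groups overlapped almost completely. On the log2 CPM scale its level was 2.19 ± 0.13 (SD, n = 3) after DMSO and 2.21 ± 0.13 (SD, n = 3) after fostamatinib, a difference of 0.02 (standard error 0.16, 95% interval -0.31 to 0.34). A fall of the size found for PLAUR lies outside this interval. The standard error was close to the 0.15 that counting alone would give at 199 and 190 reads per group. An antisense non-coding gene, C10orf55, overlaps PLAU and was not among the genes tested.

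PLAT (ENSG00000104368, chromosome 8 from 42032236 to 42065227, - strand), the other activator, was the least covered of the 5, with 27, 22 and 30 reads under DMSO and 27, 10 and 17 under fostamatinib. The first fostamatinib sample lay within the DMSO range and the other two lay below it. The log2 CPM level was 0.86 ± 0.26 (SD, n = 3) against 0.32 ± 0.72 (SD, n = 3), a difference of -0.54 (standard error 0.31, 95% interval -1.17 to 0.08). The interval includes 0, and 79 and 54 reads per group give a standard error of 0.25 from counting alone. Without the second fostamatinib sample the difference was -0.16. Without the first it was -0.88, so the size depends on which sample is left out.

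PLAUR (ENSG00000011422, chromosome 19 from 44150247 to 44174699, - strand), the receptor that holds urokinase at the surface, had 285, 334 and 247 reads under DMSO and 138, 151 and 109 under fostamatinib. Every fostamatinib sample was below every DMSO sample. Its log2 CPM level was 4.29 ± 0.21 (SD, n = 3) after DMSO and 3.26 ± 0.19 (SD, n = 3) after fostamatinib, a difference of -1.03 (standard error 0.11), or 2.05-fold lower. Of all tested genes, 3.81% had a difference below that of PLAUR.

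SERPINE2 (ENSG00000135919, chromosome 2 from 224839762 to 224904035, - strand), the protease nexin, had 52, 51 and 69 reads under DMSO and 18, 20 and 10 under fostamatinib. The highest fostamatinib sample held well under the reads of the lowest DMSO sample. The log2 CPM level went from 1.97 ± 0.24 (SD, n = 3) to 0.21 ± 0.47 (SD, n = 3), a difference of -1.76 (standard error 0.25, 95% interval -2.27 to -1.26), or 3.40-fold lower. Only 1.05% of tested genes, 172 in number, had a difference below it. Of the standard error, counting alone would give 0.24, since the fostamatinib group held 48 reads in all.

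SERPINB8 (ENSG00000166401, chromosome 18 from 61637263 to 61687013, + strand), the furin inhibitor, had 297, 307 and 293 reads under DMSO and 149, 142 and 116 under fostamatinib. The DMSO samples were nearly alike, and all of the fostamatinib samples were far below them. Its log2 CPM level went from 4.36 ± 0.07 (SD, n = 3) to 3.30 ± 0.15 (SD, n = 3), a difference of -1.06 (standard error 0.10), or 2.08-fold lower, and 3.63% of tested genes had a difference below it. HMSD, a gene on the same strand whose annotated span overlaps that of SERPINB8, had 16, 11 and 28 reads after DMSO and 12, 17 and 13 after fostamatinib.

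**Figure D1:**
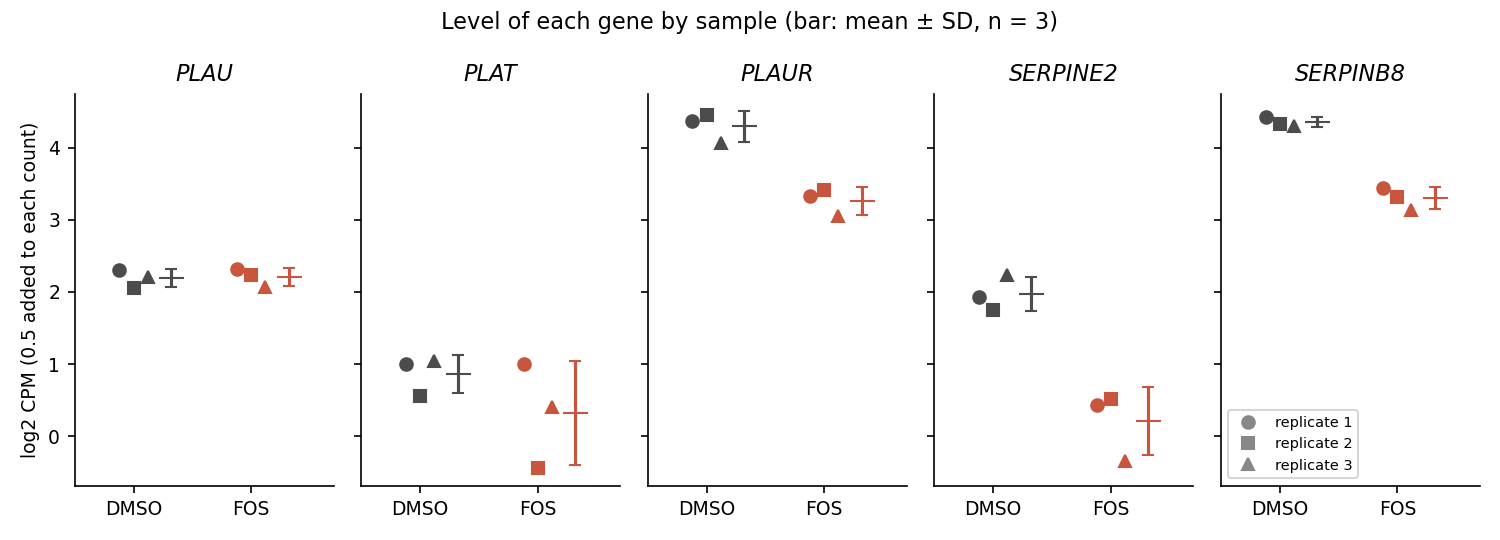
Each panel plots log2 CPM (y axis, 0.5 added to each count) of one gene in the 3 DMSO samples (grey) and the 3 fostamatinib samples (FOS, red), with the symbol giving the replicate number and the bar the mean ± SD. PLAU sits at about 2.2 in both groups and PLAT overlaps, while PLAUR, SERPINE2 and SERPINB8 are lower in all 3 fostamatinib samples.

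The third fostamatinib sample had the lowest value of all 6 samples in 3 of the 5 genes, PLAUR, SERPINE2 and SERPINB8. Without it the differences were -0.92 for PLAUR, -1.49 for SERPINE2 and -0.97 for SERPINB8, so the direction of each was kept. When each of the 6 samples was left out in turn, the difference of PLAUR lay between -1.15 and -0.92, that of SERPINE2 between -1.92 and -1.49, that of SERPINB8 between -1.13 and -0.97, and that of PLAU between -0.05 and 0.09.

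**Figure D2:**
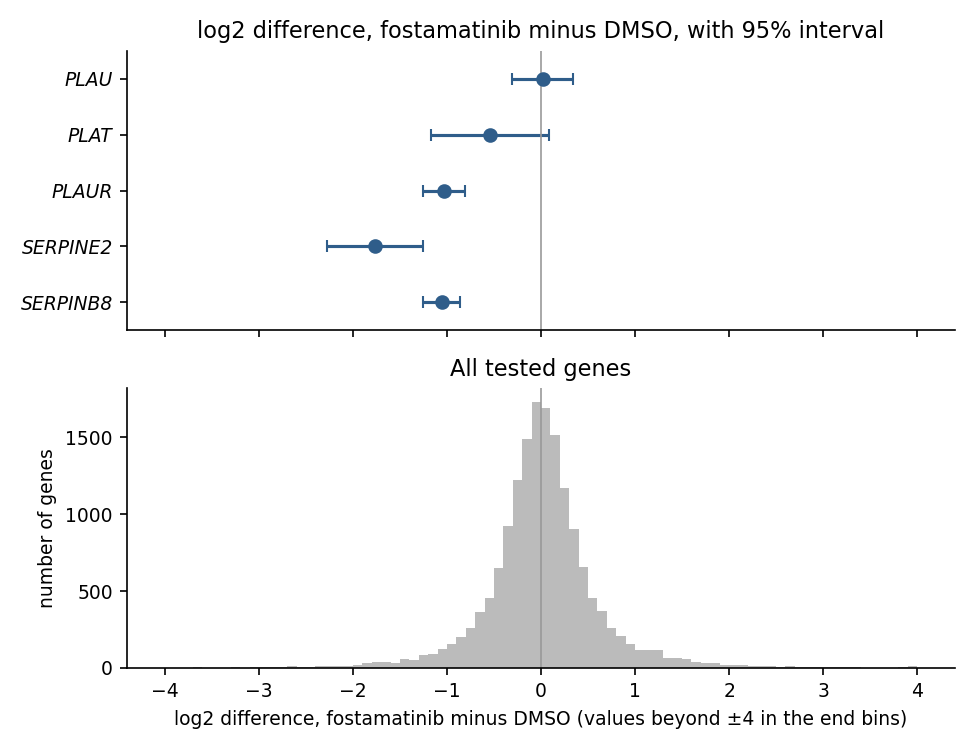
The upper panel plots the log2 difference (fostamatinib minus DMSO) of each of the 5 genes with its 95% interval from limma, and the lower panel the number of all 16305 tested genes in bins of that difference. The intervals of PLAU and PLAT include 0; those of PLAUR (-1.03), SERPINB8 (-1.06) and SERPINE2 (-1.76) lie in the left tail of the genes.

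To compare levels between genes, CPM without a pseudocount was divided by the length of each gene's exons in kilobases. After DMSO the order was PLAUR with 4.43 ± 0.619 CPM per kilobase (SD, n = 3), SERPINB8 with 3.55 ± 0.168, PLAU with 1.54 ± 0.137, SERPINE2 with 0.438 ± 0.0740 and PLAT with 0.232 ± 0.0409. The samples of PLAUR and SERPINB8 overlapped, from 3.73 to 4.91 and from 3.42 to 3.74, and the other neighbours in the order did not overlap. After fostamatinib the levels were 2.16 ± 0.278 for PLAUR, 1.71 ± 0.181 for SERPINB8, 1.56 ± 0.138 for PLAU, 0.169 ± 0.0812 for PLAT and 0.129 ± 0.0391 for SERPINE2. There SERPINB8 overlapped both PLAUR and PLAU, and SERPINE2 overlapped PLAT. Transcripts of the receptor per transcript of its ligand, as the ratio of PLAUR to PLAU per kilobase, were 2.77, 3.51 and 2.40 under DMSO and 1.34, 1.49 and 1.31 under fostamatinib. The ratio of SERPINE2 to PLAU was 0.252, 0.267 and 0.334 after DMSO and 0.0872, 0.0983 and 0.0599 after fostamatinib. The ratio of PLAUR to SERPINB8 was nearly the same in both groups, 1.25 ± 0.158 and 1.26 ± 0.0978 (SD, n = 3). The lengths come from all annotated exons, and the transcripts in use in these cells were not measured. With the length of the longest transcript instead, PLAUR and SERPINB8 did not overlap in either group, nor did SERPINB8 and PLAU after fostamatinib, while SERPINE2 and PLAT overlapped in both groups. The mean ratio after DMSO was then 7.22 for PLAUR to PLAU and 2.03 for PLAUR to SERPINB8, against 3.45 and 2.05 after fostamatinib.

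**Figure D3:**
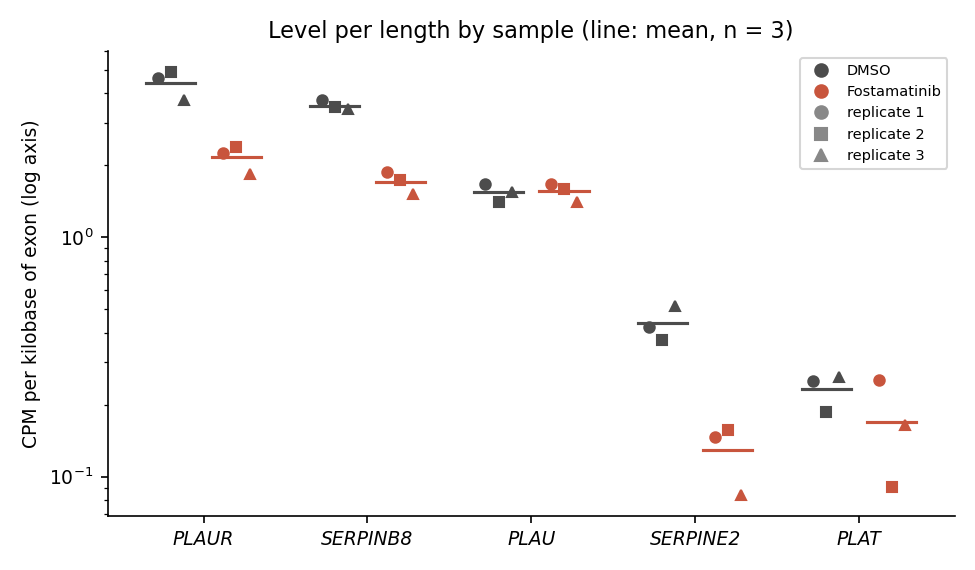
CPM per kilobase of exon (y axis, log scale) of the 5 genes in the DMSO samples (grey) and fostamatinib samples (red), with the symbol giving the replicate number and the line the mean. PLAUR and SERPINB8 overlap in both groups, PLAU stays near 1.5, and SERPINE2 moves from 0.438 to 0.129, into the range of PLAT.

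The genes around these 5 were taken from lists of the pathway and tested in the fit over all genes. The lists were written with earlier results of these data known, so nothing is read from the shares that passed. Among the genes that activate plasminogen or pro-urokinase, PLG itself (plasminogen), ST14, KLKB1 and F12 were not among the genes tested, and 3 others were. HPN (hepsin), a membrane protease able to activate pro-urokinase, rose from 14, 17 and 27 reads to 50, 51 and 49, a log2 difference of 1.49 (standard error 0.24, adjusted p = 2.87e-06, limma). CTSB (cathepsin B), a lysosomal protease that can do the same, rose by 0.47 (standard error 0.03, adjusted p = 6.40e-14). CTSL (cathepsin L) did not pass, with -0.07 (adjusted p = 0.219).

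Of the 15 tested partners and clearance receptors other than PLAUR, 8 fell, 4 rose and 3 did not pass, with a median log2 difference of -0.12 against 0.0015 over all genes. The share of 80.0% that passed is set beside the 47.8% of all genes. LRP8 and VLDLR, LDL-receptor relatives that take up complexes of a protease with a serpin, fell by 1.55 (standard error 0.08, adjusted p = 4.79e-18) and by 1.13 (standard error 0.06, adjusted p = 1.80e-17). LRP2 (megalin), with 59, 61 and 63 reads after DMSO and 34, 46 and 36 after fostamatinib, fell by 0.57 (adjusted p = 9.73e-03). LRP1, the main receptor for clearance of such complexes in hepatocytes, rose by 0.75 (standard error 0.04, adjusted p = 4.60e-18), from a mean of 8157 reads to 12860. Members of this receptor family thus moved in both directions. IGF2R, which binds the urokinase receptor and plasminogen, and the integrin ITGA3 did not pass, with -0.03 (adjusted p = 0.551) and -0.01 (adjusted p = 0.894).

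Of the 10 tested genes that bind plasminogen at the surface or control fibrinolysis, 6 rose, 1 fell and 3 did not pass, with a median of 0.44. The share of 70.0% that passed is again set beside 47.8% of all genes, of which 23.3% were higher and 24.5% lower. SERPINF2, the plasmin inhibitor alpha-2-antiplasmin, rose from 176, 135 and 137 reads to 1190, 1278 and 1334, a log2 difference of 3.18 (standard error 0.09, adjusted p = 2.76e-25). A2M, the broad protease trap alpha-2-macroglobulin, rose by 1.45 (standard error 0.04, adjusted p = 1.32e-24). The fibrinogen chains FGA and FGB, precursors of the substrate of plasmin, rose by 1.29 (adjusted p = 1.17e-25) and 0.74 (adjusted p = 1.58e-19). The gene that fell was ENO1, a glycolytic enzyme that also binds plasminogen on the cell surface, with -0.56 (adjusted p = 1.68e-16), and it is named here after its value was seen. ANXA2, which holds tissue-type activator and plasminogen together, did not pass with -0.07 (adjusted p = 0.0678), nor did CPB2, which protects fibrin from lysis, with -0.07 (adjusted p = 0.722).

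**Figure D4:**
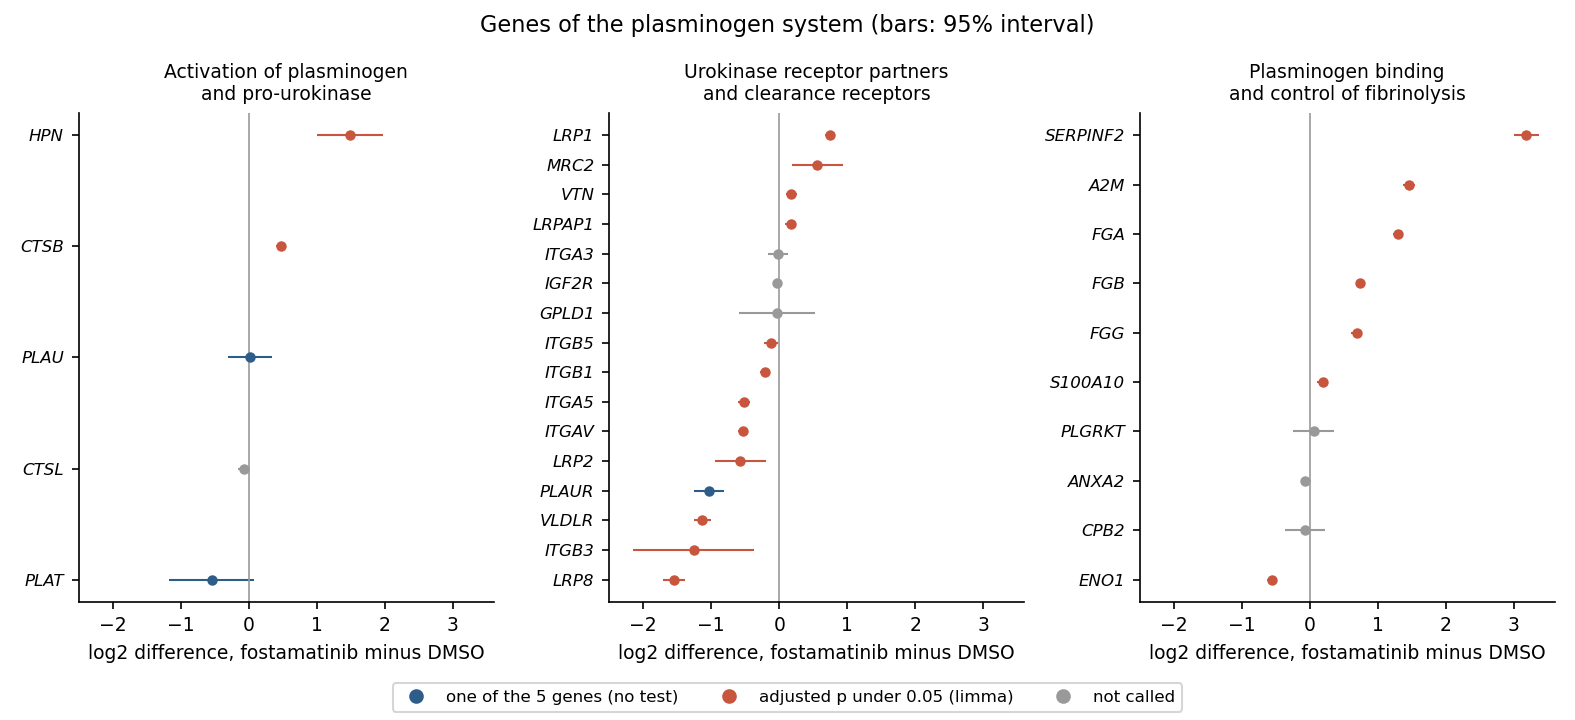
Log2 difference (x axis, fostamatinib minus DMSO) with its 95% interval for each tested gene of 3 lists of the plasminogen system, in red where the adjusted p was under 0.05 in limma, in grey where it was not, and in blue for the genes chosen with their values known. LRP8 and VLDLR lie on the left with PLAUR, LRP1 on the right, and SERPINF2 reaches 3.18.

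Among the other serpins, several that hepatocytes secrete into plasma rose. Beside SERPINF2, SERPIND1 (heparin cofactor II, a thrombin inhibitor) rose by 1.34 (standard error 0.09, adjusted p = 5.62e-15) and SERPINA5 (protein C inhibitor, which also inhibits urokinase) by 1.26 (standard error 0.09, adjusted p = 1.26e-13). SERPINB6 and SERPINB7 did not pass, with 0.05 (adjusted p = 0.384) and -0.71 (adjusted p = 0.135).

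SERPINB8 lies on chromosome 18 beside SERPINB7 and SERPINB2, all on the + strand between 61420169 and 61687013 of GRCh37. SERPINB2 (plasminogen activator inhibitor type 2) is named after its value was seen. It had 34, 42 and 37 reads after DMSO and 3, 4 and 4 after fostamatinib. The log2 difference was -3.11 (standard error 0.35). With under 5 reads in every fostamatinib sample, SERPINB2 passed the read filter only through the DMSO samples, so no test is given for it. SERPINB7 was low throughout, with 12, 13 and 15 reads against 9, 9 and 5. The clade B serpins on chromosome 6 had differences of 0.12 (SERPINB1), -0.51 (SERPINB9) and 0.05 (SERPINB6), and of these only the fall of SERPINB9 passed the threshold in every setting run.

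The genes most like each of the 5 over the 6 samples were found by Pearson correlation of log2 CPM, among genes whose higher group averaged 50 reads or more. The 6 points share the split into 2 treatments, so for a gene that differs between the groups a high r says little more than that the other gene differs too, in the same direction. For PLAUR 17.2% of the compared genes had r above 0.9, for SERPINE2 18.1% and for SERPINB8 21.4%. The closest were RBBP5, HDDC2 and PPP1R14B to PLAUR (r = 0.999, 0.997 and 0.997), HPR, HDAC2 and VDAC2 to SERPINE2 (each r = 0.996 to 0.997), and ISM1, PSMG1 and FANCA to SERPINB8 (r = 0.9996, 0.9987 and 0.9983). For PLAU, with no split between the groups, 0.114% of genes had r above 0.9 and the closest were PTPN20, CEP131 and SERAC1 (r = 0.975, 0.967 and 0.962). For PLAT it was 0.352%, and the closest were PCDHGA2, PCDHGB5 and ZW10 (r = 0.978, 0.977 and 0.975). With 6 samples and 11371 or 11372 genes compared, sampling noise alone can give some r of this size. No link to PLAU or PLAT is read from these names.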

How the data were processed

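RNA-seq libraries of Huh7SR cells (3 samples per treatment) were grouped by their GEO labels. Reads had been mapped to hg19 with HISAT and counted per gene with featureCounts on GENCODE v.22. Genes that failed to reach 5 reads in 2 of 3 samples in either group had been removed, and counts had been scaled by TMM. The deposited values are log2 CPM, computed by the authors with 0.5 added to each count; each file holds 1 sample. A linear model was fitted to the deposited values of all 16305 genes with limma 3.58.1 in R 4.3.3 (eBayes with a mean-variance trend, two-sided, Benjamini-Hochberg adjustment, threshold 0.05). It was tested on simulated data. Reads were recovered from the values, within 0.05 of whole numbers, and used for depth, filters and CPM per kilobase. Tables were made with Python 3.11.15, pandas 2.3.3 and numpy 2.4.6.

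Gene positions and exon lengths come from the GENCODE release 44 annotation on GRCh37, the build of hg19, which held 98.7% of the gene identifiers. Promoter sequences come from RefSeq on GRCh38.p14, matched by symbol; its coordinates were not mixed with those of GRCh37. A planned comparison of the proteins was not made, as no protein sequences were used here. The 5 genes and the pathway lists were chosen with earlier results of these data known. Besides the 5, the genes named in each list were up to 4 with the largest change among those with an adjusted p under 0.05 and 50 or more reads on average in the higher group, and up to 2 that did not pass with the most reads. The 3 genes most like each of the 5 were named as well. Counts over the serpin family, and some genes that meet these rules, are not reported here. Alternatives tried were eBayes without a trend, limma-voom on the recovered reads, RLE factors (median ratio to the geometric mean), library size alone, 2 stricter filters, a pseudocount of 2, the replicate number as a block, and the omission of each sample.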

Additional observations from a re-analysis of the deposited data

How the results depend on the processing

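The differences of PLAU, PLAT, PLAUR, SERPINE2 and SERPINB8 moved by less than the spread between replicates under every alternative run. Over the settings other than the omission of a sample, SERPINE2 lay between -1.78 and -1.67, with the smallest size under a pseudocount of 2, and PLAT between -0.56 and -0.50. With a sample left out, PLAT lay between -0.88 and -0.16. With the length of the longest transcript in place of all exons, the levels after DMSO were 12.3 CPM per kilobase for PLAUR, 6.04 for SERPINB8, 1.71 for PLAU, 0.654 for SERPINE2 and 0.522 for PLAT, and after fostamatinib 5.97, 2.91, 1.73, 0.193 and 0.380, in the same order of genes within each group; only the length differs. The number of genes called, 7794, lay between 6382 and 7977 over these settings, lowest without a trend, and between 6958 and 7480 with a sample left out. List counts stayed within 1.5 times.

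The replicate numbers are shared by both groups, but the deviations of same-numbered samples correlated by only 0.036, -0.021 and 0.037, and 2 of 6 samples correlated best with their own number, so no pairing was assumed. With the replicate block 7977 of 16305 genes were called. With PLAU, PLAT and PLAUR kept in their lists, the block called as many listed genes as the main fit. These were 2 of 5 in the list on activation of plasminogen and pro-urokinase (HPN and CTSB). They were 13 of 16 partners and receptors, PLAUR among the 16, and 7 of 10 fibrinolysis genes. In the main fit 47.8% of all genes were called, and nothing is read from these counts.

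Genes near 0 changed sign when a sample was left out: IGF2R ranged from -0.053 to 0.0025, ITGA3 from -0.032 to 0.014, CPB2 from -0.15 to 0.0059 and GPLD1 from -0.16 to 0.14. ANXA2 passed the threshold with limma-voom (adjusted p = 0.0333), with library size alone (0.0282) and without the first fostamatinib sample (0.0381), always lower. Calls near the threshold were lost with a sample left out: MRC2 without the first DMSO sample (adjusted p = 0.0671) or the first fostamatinib sample (0.0523), ITGB3 without the second sample of either group (0.0528 and 0.123), SERPINI1 without the first DMSO sample (0.0661) or the second fostamatinib sample (0.0751), ITGB5 without any 1 of 5 samples (0.0624 to 0.145) and SERPINB1 without any 1 of 4 (0.0515 to 0.161). ITGB3 and ITGB5 were also lost without a trend (0.103 and 0.0829), and SERPINB1 without a trend (0.162) or with library size alone (0.0552). Depth limits PLAT and SERPINE2 most, with 54 and 48 reads in all after fostamatinib.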

Other observations

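Of the 9 tested partners and clearance receptors not described above, 5 fell, 3 rose and 1 did not pass. Of all genes 47.8% passed, 23.3% higher and 24.5% lower. The 9 are what remained of a list written with earlier results known, so nothing is read from this count. These 9 genes are named after their values were seen. The integrin chains ITGAV, ITGA5 and ITGB1, which pair in vitronectin and fibronectin receptors, fell by 0.53, 0.52 and 0.22 on the log2 scale (adjusted p = 3.81e-14, 6.41e-13 and 8.21e-07, limma), with every fostamatinib sample below every DMSO sample. ITGB5 fell by 0.12 (adjusted p = 0.0430) and ITGB3, with 15, 17 and 14 reads against 5, 3 and 12, fell by 1.25 (adjusted p = 0.0169). MRC2 (a collagen receptor that associates with the urokinase receptor) rose by 0.56 (adjusted p = 0.0111). VTN (vitronectin), a ligand of the receptor, rose by 0.17 (adjusted p = 4.27e-04), and LRPAP1, the chaperone of the LDL-receptor relatives, by 0.17 (adjusted p = 3.35e-04). GPLD1 (a phospholipase that cuts lipid anchors) did not pass, with -0.03 (adjusted p = 0.932).

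Further serpins differed with no single direction. SERPINA7 (the thyroxine carrier of plasma) rose by 0.89 (adjusted p = 2.05e-09) and SERPINA1 (alpha-1-antitrypsin) by 0.49 (adjusted p = 1.35e-05). SERPINI1 (neuroserpin, an inhibitor of tissue-type activator) went from 54, 77 and 66 reads to 74, 98 and 84, a rise of 0.47 (adjusted p = 0.0119). SERPINH1 (a collagen chaperone) fell by 0.27 (adjusted p = 2.60e-06), and SERPINB9 (a granzyme B inhibitor) fell by 0.51 (adjusted p = 1.58e-05).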
